A study of Homo sapiens with 18 samples.

Results

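The genes described here are the numbered zinc finger genes of human chromosome 19. They were chosen as the protein-coding genes of that chromosome whose symbol is ZNF followed by a number and at most 1 letter, with 60 or more reads summed over the 12 libraries of the knockdown experiment. Of the 58735 genes counted, 246 met the naming rule and 232 of these also had enough reads. These 232 are called the members below. The summed count is the one measured value that chose them. ZNF177 with 61 counts, ZNF781 with 69 and ZNF491 with 71 lay just above the threshold, and ZNF20 with 53, ZNF534 with 45 and ZNF625 with 39 lay just below it.

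Most of these genes encode C2H2 zinc finger proteins, in which a tandem array of fingers reads DNA. Many also carry a KRAB domain, which recruits the corepressor TRIM28 and, through it, the H3K9 methyltransferase SETDB1. Such proteins are known above all for silencing transposable elements, and their genes multiplied by local duplication, so that they stand in dense clusters on chromosome 19. In the annotation table of the deposited files 225 of the 232 members are listed in the transcription factor family zf-C2H2.

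The samples were 2 established human lines of lung adenocarcinoma, A549 and H358, in which the level of RAD21 had been altered. RAD21 belongs to cohesin, the ring-shaped complex that holds sister chromatids together and extrudes chromatin loops, and bridges its SMC subunits. RAD21 was depleted in both lines by a lentiviral short hairpin RNA (shRAD21) and compared with cells given a control vector (shNC), and it was overexpressed in A549 (RAD21OE) and compared with an empty vector (EV). There were 3 libraries in each of 6 groups, and the overexpression libraries form another batch than the knockdown libraries per the labels, so levels were not tested across the 2 experiments. The labels do not say how many hairpins or clones were used, nor whether the replicates were separate cultures, so the spread behind every p-value is that of the libraries as sequenced and can be technical.

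The 12 knockdown libraries held between 15155077 and 19277568 counts and the 6 overexpression libraries between 13024640 and 14276335. RAD21 followed the labels: it fell from a mean of 254.8 to 120.6 CPM (each count relative to the scaled total of its library) in A549 (log2 fold change -1.08), fell from 586.8 to 412.8 CPM in H358 (-0.51) and rose with overexpression (2.85). Replicate 3 of A549 shRAD21 and replicate 3 of RAD21OE stood apart from the other libraries of their groups, with a median absolute log2 difference over members of 0.308 and 0.304, and of 0.294 and 0.243, against 0.105 to 0.176 for every other pair of replicates. Both keratins KRT8 and KRT18 were abundant in both lines, but NKX2-1, a transcription factor that marks lung lineage, averaged 0.0643 CPM in A549 shNC against 121.5 CPM in H358 shNC. EPCAM averaged 3.65 against 539.5 CPM, KRT19 8.79 against 1499 CPM and CDH1 66.7 against 499.8 CPM. The other lung markers did not set the lines apart in this way. NAPSA averaged 1.32 and 1.63 CPM, and SFTPB, SFTPC and SCGB1A1 at most 0.112 CPM in either shNC group. The summed level of 10 lung epithelial markers, most of it keratin, was 7125 to 7549 CPM in A549 shNC and 11270 to 13980 CPM in A549 shRAD21, and 8236 to 8437 CPM in EV and 10380 to 13570 CPM in RAD21OE; its part in the changes of members was not tested. Of 9 markers of other cell types, 3 averaged at least 1 CPM in A549 shNC and 3 in H358 shNC, with summed levels of 507.9 to 537.5 and of 108.5 to 113.7 CPM, most of it the mesenchymal filament gene VIM (487.0 and 70.2 CPM). After knockdown the sums were 569.3 to 594.8 CPM in A549 and 90.33 to 93.37 CPM in H358, and their part in the changes of members was not tested. COL1A1 averaged 27.7 CPM in A549 shNC and 36.0 CPM in H358 shNC, COL3A1 2.90 and 0.0875 CPM, and PECAM1 0.127 and 3.84 CPM. PTPRC, CD3E, CD68, VWF and DCN averaged under 1 CPM in both shNC groups. CD3E had no count in any A549 library and DCN none in any H358 library.

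The repeated build of these genes is visible in their sequence. Successive fingers are joined by a conserved linker. A single 14-base spelling of it, in capitals in the sequences shown here, occurred in the transcripts of 136 members (58.6%). The same spelling occurred in 70 of 243 ZNF genes on other chromosomes (28.8%) and in 3 of 865 other protein-coding genes of chromosome 19 (0.347%). Only exact matches were counted, so these are not the shares of genes with a linker. The search used the sense strand of GENCODE 29 transcripts and genes with 60 or more counts. ZNF845 held the most copies of this spelling, 17, and ZNF91 held 15. A stretch of coding sequence of each shows 1 repeat unit of 84 bases, with the linkers in capitals.

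ZNF845: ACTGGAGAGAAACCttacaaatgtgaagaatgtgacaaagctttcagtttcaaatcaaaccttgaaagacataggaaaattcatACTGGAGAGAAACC

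ZNF91: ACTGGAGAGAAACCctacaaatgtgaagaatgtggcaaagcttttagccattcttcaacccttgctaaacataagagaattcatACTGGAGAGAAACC

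This likeness bears on the counts, since a read that matches several genes cannot be placed. Over the members, the median share of 50-base windows of a gene's transcripts that another gene also holds was 4.67%, and it exceeded 20% for 27 members. Exons overlapped a gene on the same strand over more than 20% of their length in 13 members and a gene on the opposite strand in 9. The sources used here do not give whether the libraries keep strand, so values of those members are less certain.

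The level of the members differed between the lines before RAD21 is considered. In the control libraries the members took 0.186% to 0.188% of all counts in A549 and 0.382% to 0.398% in H358. Their median level was 3.01 CPM in A549 shNC and 11.1 CPM in H358 shNC. A mean of at least 1 CPM, called expressed here, was reached by 146 of the 232 members in A549 shNC and by 227 in H358 shNC. At most 3 counts over the 3 libraries, called silent here, were found for 52 members in A549 shNC and for 0 in H358 shNC. The A549 EV libraries, of another batch and scaled separately, gave 154 expressed and 45 silent members, and 42 members were silent in both A549 controls (80.8% of the 52 and 93.3% of the 45).

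The choice of members bears on these counts. All 232 reach 60 counts in the 6 H358 libraries alone and 156 in the 6 A549 libraries alone, so 76 members were admitted through H358 only and had to be low in A549. The counts are therefore a description. Over all 246 candidates, with no threshold, 64 were silent in A549 shNC and 8 in H358 shNC. The ZNF genes of other chromosomes, chosen by the same threshold, had 9 of 243 silent in A549 shNC and 3 in H358 shNC, and the other protein-coding genes of chromosome 19 had 22 of 865 and 18. By edgeR's test of H358 shNC against A549 shNC, 169 members were higher and 30 lower at an adjusted p under 0.05, which is 85.8% of those tested against 76.0% of all genes tested (39.1% higher and 36.8% lower). These counts carry the threshold in them: the 86 members under 1 CPM in A549 shNC were 86 higher and 0 lower, and the 146 expressed there were 83 higher and 30 lower with a median log2 difference of 0.67. The median log2 difference was 1.73 over all members, 0.05 over all genes, 0.36 over the ZNF genes of other chromosomes and -0.42 over the other genes of chromosome 19.

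**Figure D1:**
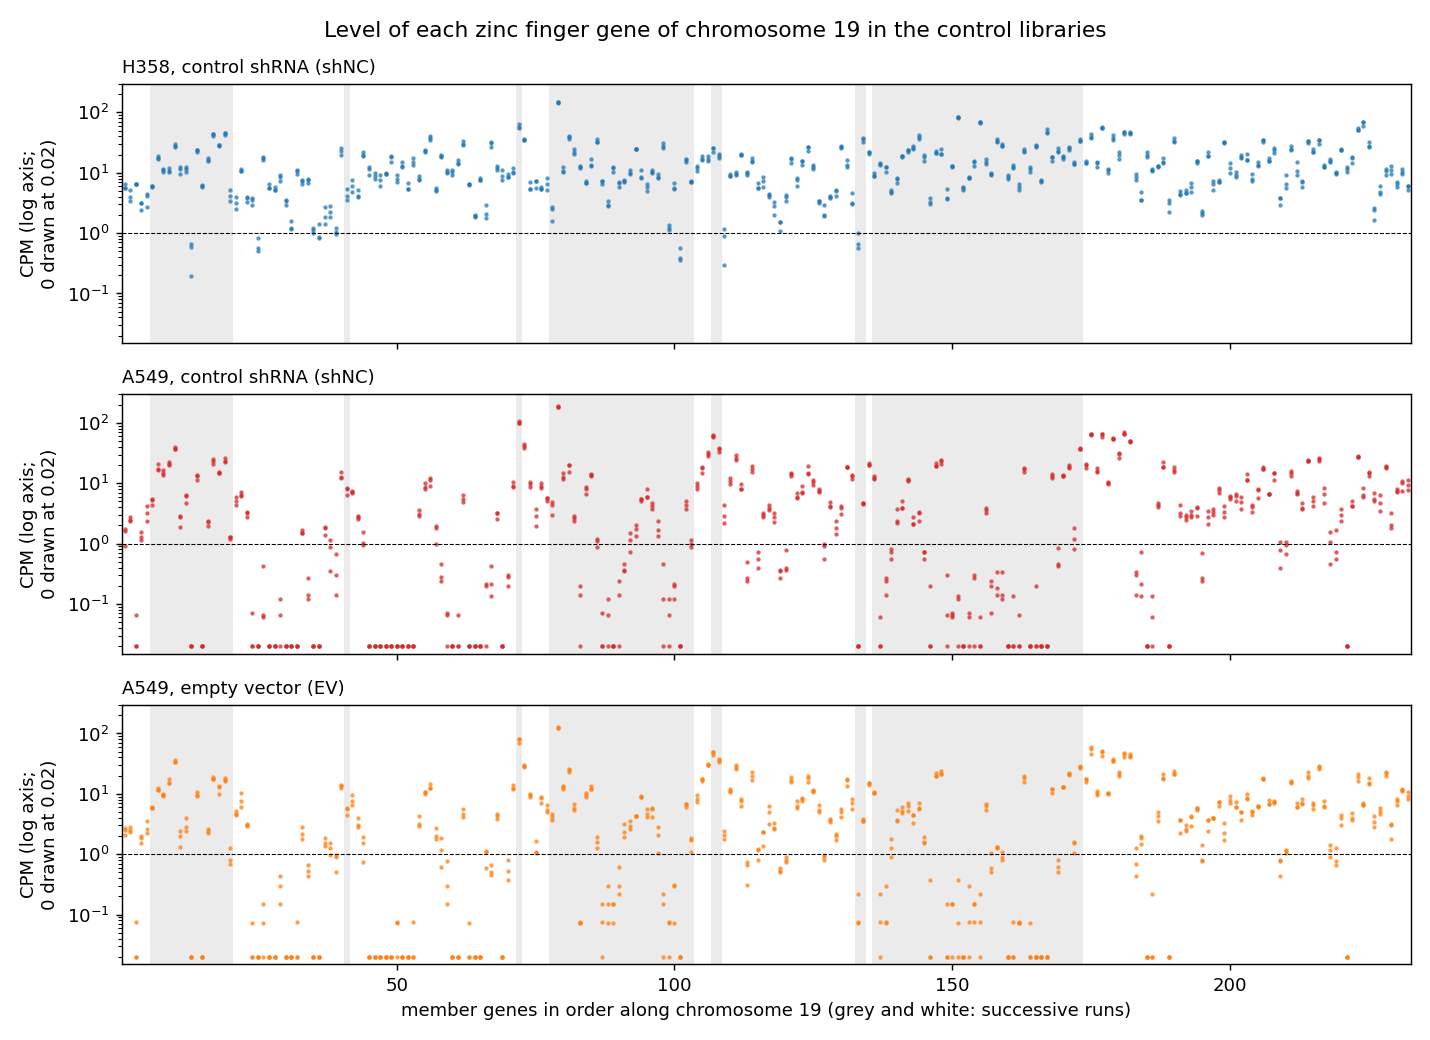
Level (CPM, log axis, zeros drawn at 0.02) of each of the 232 members, in their order along chromosome 19, in the 3 libraries (points) of H358 shNC, A549 shNC and A549 EV. The dashed line marks 1 CPM, and grey and white mark successive runs of neighbours. Members below the line were 86 in A549 shNC, 78 in A549 EV and 5 in H358 shNC by their group means, and in A549 they stand in stretches.

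ZNF677 is an example of a member seen in H358 alone. This gene (ENSG00000197928, minus strand, chr19:53235381-53254898 in hg38) had no count in any of the 12 A549 libraries and 45.2, 46.7 and 53.8 CPM in the H358 shNC libraries, at least 732-fold higher against a floor of 3 counts over the A549 group. ZNF667 was likewise at 0 in all 12 A549 libraries and at 22.0, 19.6 and 18.3 CPM in H358 shNC, at least 303-fold higher. ZNF486 had 0 counts in A549 and 18.8, 18.2 and 15.1 CPM in H358 shNC, at least 264-fold higher. ZNF83 had 0.061, 0 and 0 CPM in A549 shNC against 68.8, 67.9 and 69.7 CPM in H358 shNC, but it was not among the 42 members silent in both A549 controls. In all, 24 members had 0 counts in all 12 A549 libraries, with a median of 7.69 CPM in H358 shNC. Members with 0 counts in A549 had to reach the threshold through H358, so their presence in H358 was set by the choice of members. Candidates with 0 counts in both lines were left out by the threshold. The number of members seen in H358 alone is therefore a description.

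A smaller group was higher in A549. ZNF574 stood at 63.3, 59.7 and 58.0 CPM in A549 shNC and at 25.3, 22.3 and 25.9 CPM in H358 shNC (log2 difference -1.30, SE 0.10). ZNF296 stood at 11.8, 13.8 and 13.0 CPM against 3.16, 4.60 and 2.99 CPM (-1.82). ZNF575, ZNF428, ZNF497 and ZNF235 were lower in H358 by 1.97, 1.46, 1.39 and 1.18 on the log2 scale. The ranges of the lines did not overlap for any of these genes. That was a condition for naming them, and held for 81.0% of all genes tested. Per kilobase of exon the most abundant member in both lines was ZNF146, a gene for a protein made almost wholly of zinc fingers, with 44.4 CPM per kilobase in A549 shNC and 35.6 in H358 shNC. ZNF580, ZNF579 and ZNF787 were among the 5 highest per kilobase in both lines.

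The difference between the lines varied with position. Members in order of their start were divided into runs wherever the next start lay more than 1 Mb away, which gave 15 runs, 9 of them with 5 or more members. In the run of 30 from ZNF101 to ZNF254 (chr19:19668796-24129961), 30 were expressed in H358 shNC, 10 were expressed in A549 shNC and 16 were silent there. In the run of 38 from ZNF175 to ZNF331 (chr19:51571298-53580269) these numbers were 38, 15 and 13, and in the run of 20 from ZNF653 to ZNF791 (chr19:11483427-12640098) they were 19, 6 and 10. The median fitted log2 difference between the lines was 7.83, 5.40 and 6.49 in these runs. These numbers carry the threshold in them, since members low in A549 had to reach it through H358. Inside the run of 30, 7 candidates with at most 3 counts in both H358 groups were left out by it. Where A549 shNC had 0 counts, the size of a fitted difference has no upper bound in the data. Other runs were expressed in both lines: the 24 members from ZNF575 to ZNF296 (chr19:43525497-45076588) had 23 expressed in H358 shNC, 19 in A549 shNC and 0 silent, with a median difference of 0.25. The largest run, 59 members from ZNF628 to ZNF446 (chr19:55476332-58481230), had 59 and 49 expressed and 4 silent in A549, with a median of 0.94.

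Genes of other kinds lie between the members of some runs, and their values are given beside those of the members. The 36 other protein-coding genes inside the run of 15 from ZNF557 to ZNF846 had a median log2 difference of -0.23, against 0.88 for the members there. The 22 inside the run from ZNF575 to ZNF296 had -0.15 against 0.25, and the 25 inside the run of 59 had 0.50 against 0.94. The 3 runs with the widest difference held 0 to 3 such genes. Over 217 pairs of adjacent members within runs, Spearman's rho between the fitted log2 differences of the neighbours, silent members included, was 0.572. This rho carries the threshold in it too and is a description. The 76 members admitted through H358 only had to be low in A549, and candidates low in both lines were left out. The number of runs depends on the gap: 0.5 Mb gave 11 runs of 5 or more members and 2 Mb gave 6.

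**Figure D2:**
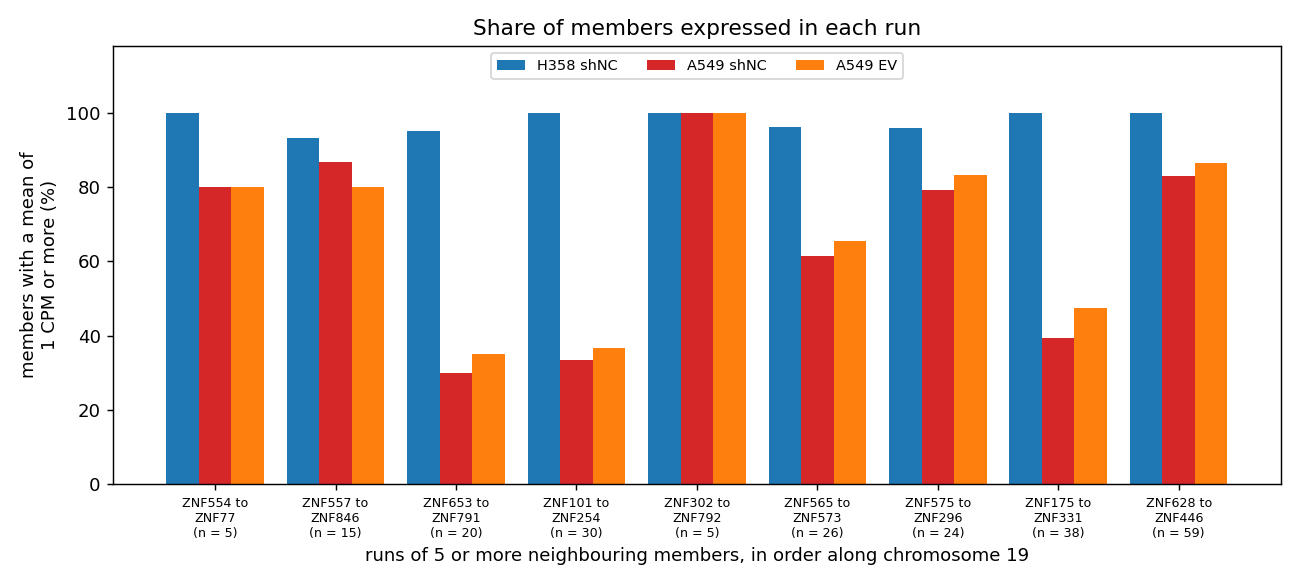
Percentage of members with a mean of 1 CPM or more in H358 shNC, A549 shNC and A549 EV (bars) for each of the 9 runs of 5 or more members, in order along chromosome 19. The A549 bars are lowest in the runs of 20, 30 and 38 members, where 6, 10 and 15 members were expressed in A549 shNC against 19, 30 and 38 in H358 shNC.

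With members alone counted, the longest silent stretch in A549 was 9 consecutive members, ZNF253, ZNF93, ZNF682, ZNF90, ZNF486, ZNF737, ZNF626, ZNF66 and ZNF85 (chr19:19865886-20950697). Each was silent in both A549 controls. ZNF85 had 0 counts in the 3 A549 shNC libraries and 15.0, 13.2 and 17.5 CPM in H358 shNC, and ZNF626 had 0 and then 12.6, 15.1 and 13.1 CPM. ZNF93 and ZNF91 of this region are known as repressors of LINE-1 and SVA retrotransposons. ZNF91, further along, had 0.427, 0.134 and 0.213 CPM in A549 shNC and 27.03, 31.2 and 32.6 CPM in H358 shNC. The next stretch was 4 members, ZNF415, ZNF347, ZNF665 and ZNF677 (chr19:53107879-53254898). Between the silent members of the same runs stand expressed ones: ZNF714 lay at 10.3, 8.03 and 8.64 CPM in A549 shNC and 24.04, 23.3 and 21.8 CPM in H358 shNC. ZNF160, next to ZNF415, lay at 15.3, 17.1 and 18.2 CPM in A549 shNC and 22.4, 24.97 and 23.3 CPM in H358 shNC.

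A 300-base window from 250 bases before to 50 after the start of the gene was matched in RefSeq (GRCh38.p14) for 205 members. It held a median of 20 CpG dinucleotides, against 24 over the ZNF genes of other chromosomes (199 of 243 matched) and 14 over all 27305 promoters of that table. Among members silent in both A549 controls the median was 14 (35 of 42 matched, range 8 to 42), and among members expressed in both it was 22 (134 of 145 matched, range 6 to 40). The ratio of observed to expected CpG had a median of 0.537 in the silent and 0.797 in the expressed members. These values are descriptions. The full ranges of CpG numbers overlap almost wholly, and the quartiles were 9.0 and 20.5 in the silent and 17.0 and 26.0 in the expressed members. Promoters of 2 silent members and of 1 expressed neighbour are shown with CpG in capitals: ZNF677 (chr19:53254774-53255073, minus strand, 34 CpG), silent in A549 with a CpG-rich window, ZNF486 (chr19:20166964-20167263, plus strand, 10 CpG), silent with a CpG-poor one, and ZNF160 (chr19:53103373-53103672, minus strand, 30 CpG), expressed in both lines.

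ZNF677: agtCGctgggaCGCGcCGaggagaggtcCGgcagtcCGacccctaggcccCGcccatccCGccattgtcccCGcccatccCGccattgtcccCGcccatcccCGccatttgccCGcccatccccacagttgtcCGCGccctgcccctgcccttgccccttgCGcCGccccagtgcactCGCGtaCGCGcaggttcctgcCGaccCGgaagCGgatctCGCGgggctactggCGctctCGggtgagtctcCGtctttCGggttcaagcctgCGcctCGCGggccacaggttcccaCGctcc

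ZNF486: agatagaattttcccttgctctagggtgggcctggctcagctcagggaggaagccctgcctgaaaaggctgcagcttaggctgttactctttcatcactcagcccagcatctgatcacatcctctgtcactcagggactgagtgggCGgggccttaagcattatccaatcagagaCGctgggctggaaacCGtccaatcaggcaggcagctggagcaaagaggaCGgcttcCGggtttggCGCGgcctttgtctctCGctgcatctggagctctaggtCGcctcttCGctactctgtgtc

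ZNF160: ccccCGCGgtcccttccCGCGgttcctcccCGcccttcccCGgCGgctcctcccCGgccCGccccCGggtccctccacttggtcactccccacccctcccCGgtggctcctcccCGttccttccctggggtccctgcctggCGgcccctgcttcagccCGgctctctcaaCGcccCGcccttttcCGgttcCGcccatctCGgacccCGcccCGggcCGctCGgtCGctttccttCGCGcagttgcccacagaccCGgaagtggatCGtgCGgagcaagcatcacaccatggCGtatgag

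Knockdown of RAD21 in A549 moved 22 members, 13 higher and 9 lower, which is 9.48% of the 232 tested against 25.2% of all genes tested (14.4% higher and 10.9% lower). The median log2 fold change was 0.00 over members and over all genes, and 49 members were silent in both groups and could show no change. Among the 146 members expressed in A549 shNC, 10 rose and 8 fell (12.3%). The other protein-coding genes of chromosome 19 had 44 higher and 230 lower of 850, with a median of -0.23.

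The rises lay in several runs. ZNF254 stood at 10.5, 8.83 and 8.998 CPM in shNC and 15.0, 16.8 and 13.0 CPM in shRAD21 (log2 fold change 0.66, SE 0.13, adjusted p = 0.000957). Groups that do not overlap were a condition for the rises and falls named here, and held for 32.7% of all genes tested. ZNF552 rose from 4.64, 3.75 and 3.83 CPM to 5.75, 5.78 and 7.91 CPM (0.66, SE 0.17, adjusted p = 0.00847). ZNF443, ZNF573, ZNF799, ZNF675, ZNF792 and ZNF181 rose by 1.22, 0.91, 0.88, 0.59, 0.51 and 0.48. ZNF443 and ZNF799 are neighbours that share 37.7% and 24.1% of their 50-base windows with other genes. ZNF443 was low throughout, at 1.16, 0.87 and 0.354 CPM in shNC and 2.45, 1.78 and 1.43 CPM in shRAD21. Of the 30 members from ZNF101 to ZNF254, 4 rose and 0 fell, beside 14.4% of all genes higher and 10.9% lower. Of these 30, however, 16 were silent in A549 shNC and 10 were expressed there, so the 2 shares are not alike in base. With GC and length trends removed 1 of the 30 rose and 1 fell.

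ZNF274, which binds the 3' ends of zinc finger genes and recruits SETDB1 to them, fell. It stood at 26.8, 28.0 and 27.1 CPM in shNC and 18.0, 18.5 and 21.5 CPM in shRAD21 (log2 fold change -0.50, SE 0.09, adjusted p = 0.000406). ZNF841 fell from 3.29, 2.41 and 3.19 CPM to 0.917, 1.91 and 1.70 CPM (-0.98, SE 0.23, adjusted p = 0.00356). ZNF428 fell from 29.2, 26.2 and 24.7 CPM to 13.5, 11.6 and 22.2 CPM (-0.77, SE 0.17, adjusted p = 0.00253). Its replicate 3 lay close to the controls, and 27.6% of its exonic length is shared with an opposite-strand gene. ZNF426, ZNF562, ZNF558 and ZNF264 fell by 0.80, 0.34, 0.33 and 0.32. Without replicate 3 of shRAD21, 30 members were higher and 25 lower, which is 23.7% against 43.0% of all genes tested in that fit. With the 6 A549 libraries fitted alone, 4 were higher and 4 lower of 156, which is 5.13% against 19.2%. Without shNC replicate 1, 10 and 5 were called, without shNC replicate 2, 6 and 6, without shRAD21 replicate 1, 6 and 9, and without shRAD21 replicate 2, 6 and 6.

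In H358, where RAD21 was depleted less, 7 members changed, 3 higher and 4 lower, which is 3.02% of the 232 tested against 8.4% of all genes tested (3.78% higher and 4.62% lower). The median was -0.01 over members and 0.00 over all genes. ZNF114 rose from 36.3, 37.9 and 32.3 CPM in shNC to 49.3, 51.9 and 54.9 CPM in shRAD21 (log2 fold change 0.55, SE 0.08, adjusted p = 0.000492). ZNF628 and ZNF865 rose by 0.38 and 0.33, with adjusted p-values of 0.0455 and 0.0429. ZNF83 fell from 68.8, 67.9 and 69.7 CPM to 50.1, 43.2 and 45.1 CPM (-0.58, SE 0.09, adjusted p = 0.000927). For both ZNF114 and ZNF83 every depleted library lay outside the range of the controls. That was a condition for naming them, and held for 36.1% of all genes tested. ZNF471 fell by 0.63, ZNF615 by 0.55 and ZNF91 by 0.42. ZNF91, the retrotransposon repressor, went from 27.03, 31.2 and 32.6 CPM to 20.5, 24.3 and 23.1 CPM (adjusted p = 0.0416). With the 6 H358 libraries fitted alone, 12 members were higher and 11 lower of 231, which is 9.96% against 26.0% of all genes tested. With any 1 of the 6 libraries left out, only 1 member was higher and 1 lower, and ZNF114 and ZNF83 held their calls each time.

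Overexpression of RAD21 in A549 moved 40 of the 161 members tested, 17 higher and 23 lower, which is 24.8% against 27.8% of all genes tested (14.1% higher and 13.7% lower). The median log2 fold change was -0.13 over members and -0.01 over all genes. The other protein-coding genes of chromosome 19 had 194 higher and 57 lower of 768, with a median of 0.15.

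Among members at 1 CPM or more, ZNF837 fell most, from 5.74, 4.63 and 5.29 CPM in EV to 1.77, 2.47 and 1.97 CPM in RAD21OE (log2 fold change -1.34, SE 0.21, adjusted p = 0.000698). ZNF260 fell from 26.1, 22.8 and 24.5 CPM to 16.2, 11.8 and 7.93 CPM (-1.03, SE 0.19, adjusted p = 0.002). ZNF841, ZNF254, ZNF708, ZNF529, ZNF431 and ZNF420 fell by 1.14, 1.11, 1.08, 1.02, 0.89 and 0.88. For ZNF260, ZNF254 and ZNF431 the lowest value was that of replicate 3. ZNF551 rose from 7.36, 6.98 and 7.71 CPM to 13.2, 14.2 and 9.97 CPM (0.76, SE 0.16, adjusted p = 0.00375). ZNF628 rose from 16.0, 17.4 and 17.3 CPM to 25.2, 25.3 and 28.3 CPM (0.64, SE 0.11, adjusted p = 0.00144). ZNF274, ZNF235, ZNF614, ZNF787, ZNF266 and ZNF530 rose by 0.69, 0.50, 0.48, 0.47, 0.45 and 0.44.

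The counts by run are a description, beside 14.1% of all genes higher and 13.7% lower. From ZNF101 to ZNF254, 9 members were tested, 0 rose and 4 fell, with a median of -0.63. From ZNF565 to ZNF573 (chr19:36182060-37817300), 17 were tested, 0 rose and 5 fell, with a median of -0.44. From ZNF557 to ZNF846 (chr19:7069444-9793180), 13 were tested, 3 rose and 0 fell, with a median of 0.23. Of 20 tested from ZNF175 to ZNF331, 3 rose and 4 fell, of 22 from ZNF575 to ZNF296, 1 rose and 3 fell, and of 54 in the run of 59 members 7 rose and 7 fell. Spearman's rho between neighbours was 0.385 over the 122 pairs in which both were tested. Without RAD21OE replicate 3 the medians of the runs from ZNF101, ZNF565, ZNF557 and ZNF628 were -0.62, -0.35, 0.31 and -0.07. Leaving out a library moved the counts of calls: 5 higher and 17 lower without EV replicate 1, 4 and 9 without EV replicate 2, 9 and 14 without EV replicate 3, and 8 and 17 without RAD21OE replicate 2.

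**Figure D3:**
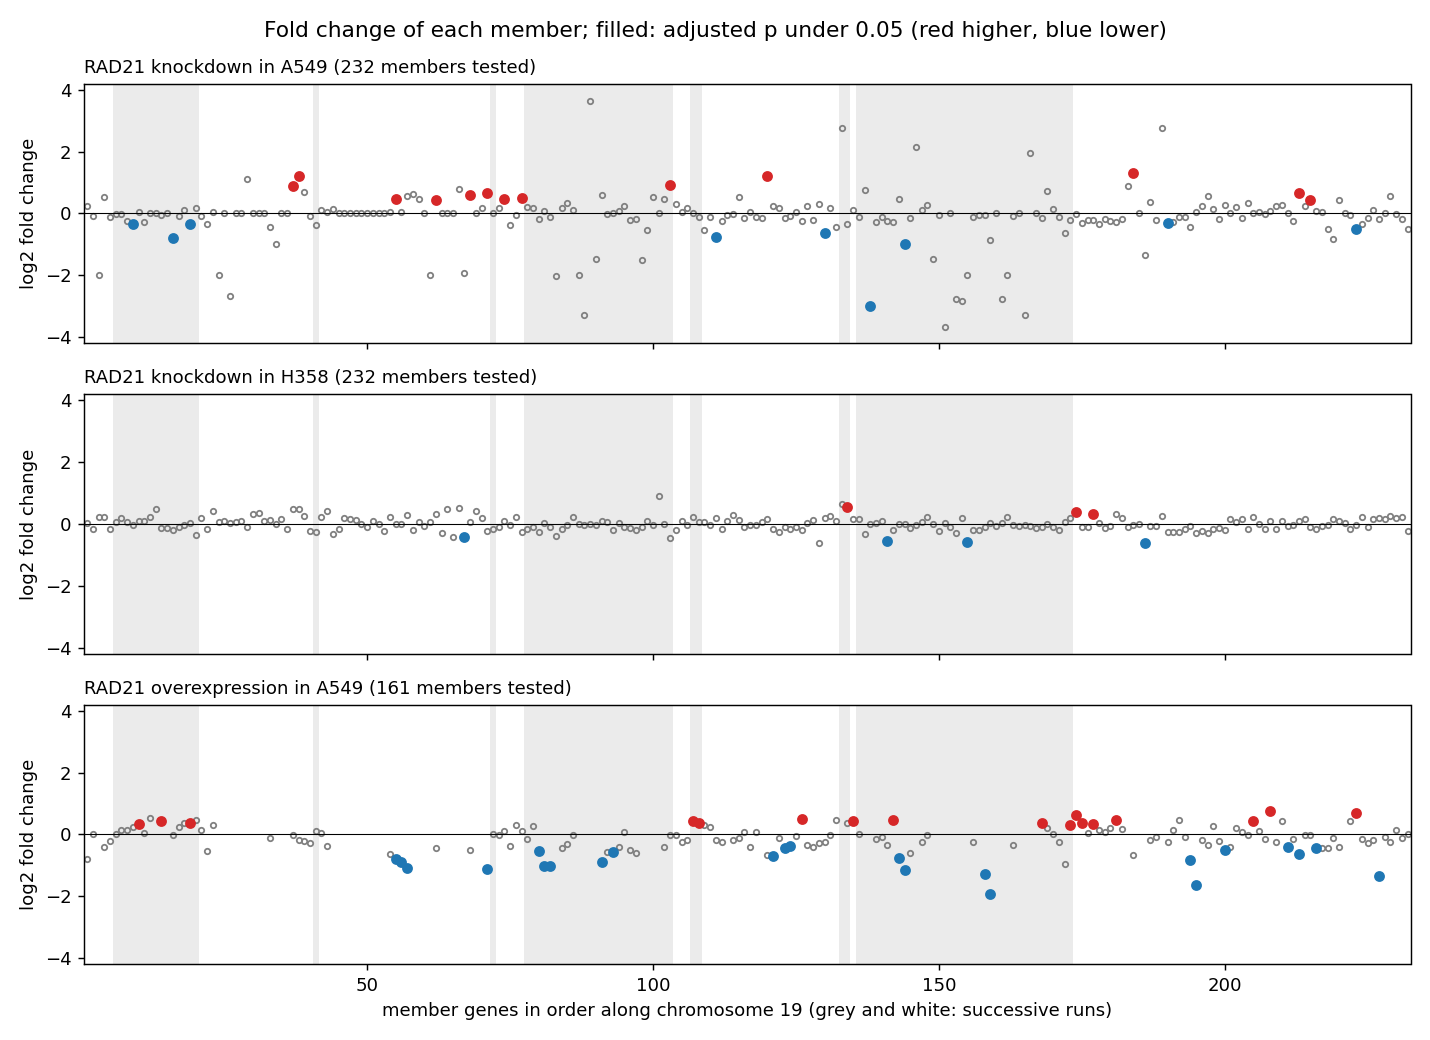
Log2 fold change of each tested member, in order along chromosome 19, after RAD21 knockdown in A549 and H358 and after RAD21 overexpression in A549. Filled points passed an adjusted p of 0.05 (red higher, blue lower): 13 and 9, 3 and 4, and 17 and 23. Many wide open points in the top panel are members with a handful of counts in A549.

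No member passed the test in both knockdowns or in all 3 comparisons. The knockdown and the overexpression in A549, which have separate controls, shared 6 members (27.3% of the 22 and 15% of the 40), and 5 of them moved in opposite directions. Over all genes tested in both, 1574 were called in both, 32.9% of those called after knockdown and 36.6% of those called after overexpression, and 65.9% of the 1574 moved in opposite directions. The shares of called members that were shared, 27.3% and 15%, rest on 6 members and lie below those of all genes. Members were also called less often after knockdown, 9.48% of them against 25.2% of all genes, so the shares have unlike base rates. ZNF274 fell with knockdown and rose from 21.7, 16.2 and 18.8 CPM in EV to 33.4, 27.5 and 30.5 CPM in RAD21OE (0.69, SE 0.13, adjusted p = 0.00212). ZNF562, a member with 22.7% shared windows, fell with knockdown (-0.34, adjusted p = 0.0119) and rose with overexpression (0.37, adjusted p = 0.0304). ZNF254 rose with knockdown and fell from 12.6, 12.2 and 13.9 CPM to 8.62, 5.92 and 3.28 CPM (-1.11, SE 0.24, adjusted p = 0.00466). ZNF552 rose with knockdown and fell from 7.07, 8.26 and 6.76 CPM to 5.09, 5.02 and 4.22 CPM (-0.62, SE 0.17, adjusted p = 0.0147). ZNF714 rose by 0.47 and fell by 0.81. In each of these 5 the groups did not overlap in either comparison, which held for 32.7% and 45.4% of all genes tested.

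ZNF841 was the exception and fell both times, with overexpression from 6.995, 5.54 and 5.88 CPM to 3.82, 2.62 and 1.89 CPM. Over the 144 members expressed in the controls of both comparisons, rho between the 2 sets of fold changes was -0.219. It was 0.0338 over 145 members between the 2 knockdowns. ZNF628 and ZNF865 rose both with knockdown in H358 and with overexpression in A549, in the same direction for opposite changes of RAD21. Their H358 calls were lost with GC and length trends removed, at 0.20 (adjusted p = 0.164) and 0.15 (0.144), and with any 1 H358 library left out. These are the 2 members called in both, 28.6% of the 7 and 5% of the 40, and rho over 151 members was 0.138. The overlap over all genes is not given for this pair, so these shares are a description only.

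**Figure D4:**
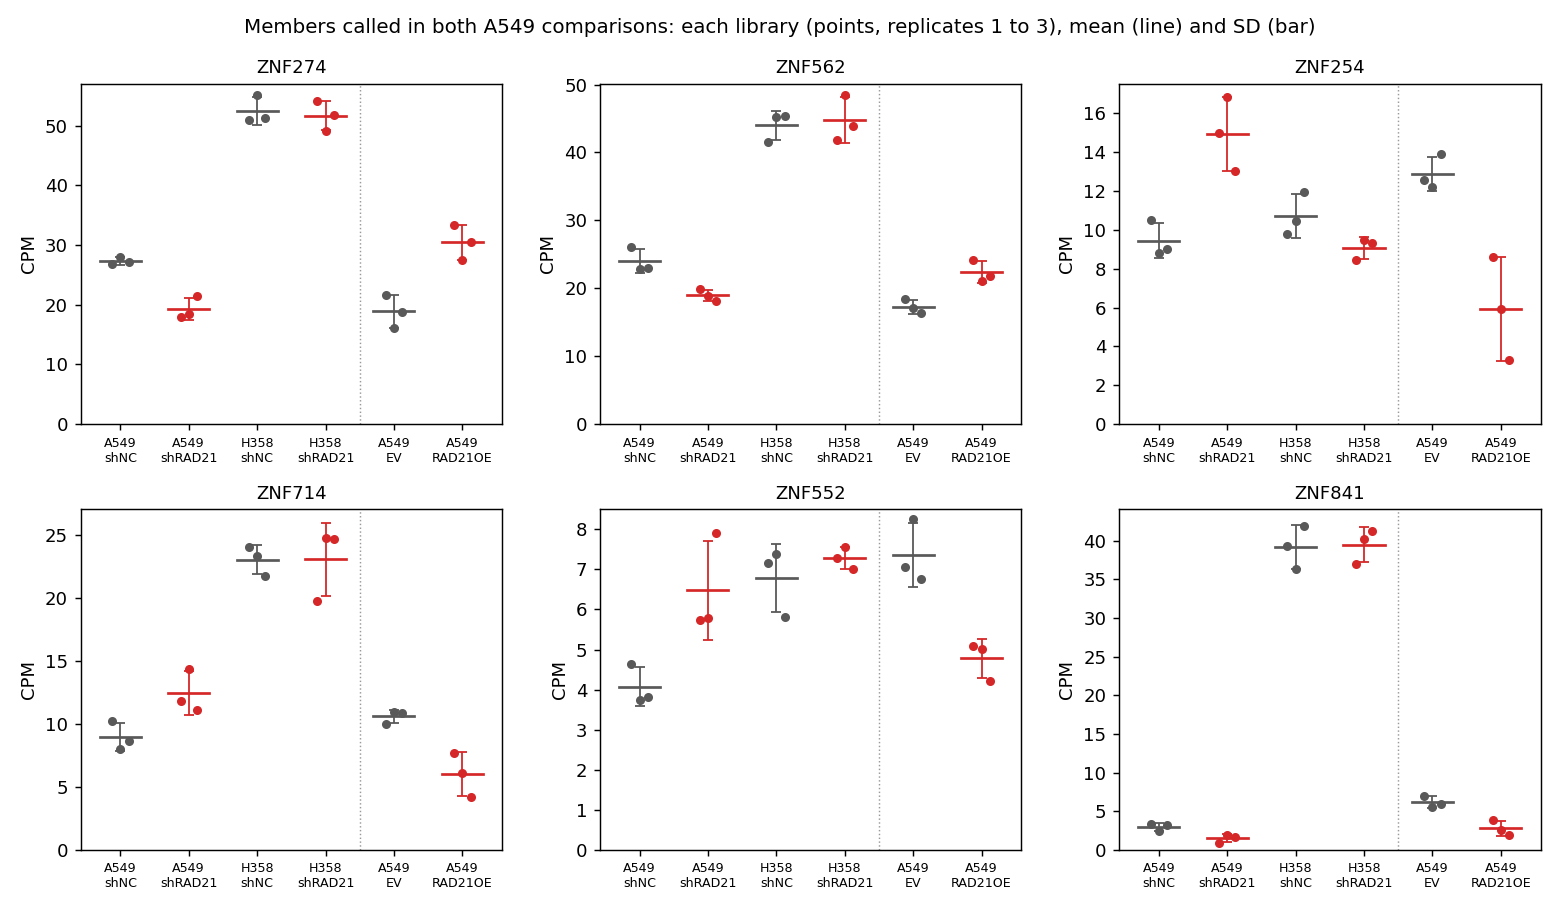
Level in CPM (linear axis from 0) of the 6 members called in both A549 comparisons, in each library (points, replicates 1 to 3 from left to right) of the 6 groups, with mean (line) and SD (bar); red marks altered RAD21, and the dotted line separates the 2 batches. ZNF274 and ZNF562 are lower in shRAD21 and higher in RAD21OE than in their A549 controls, ZNF254, ZNF714 and ZNF552 the reverse, and ZNF841 is lower in both; none of the 6 passed the test in H358.

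The difference between the 2 knockdowns was tested directly, as the H358 response minus the A549 response. It was positive in 10 members and negative in 4, which is 6.03% of 232 against 17.6% of all genes tested (7.61% positive and 9.94% negative). ZNF114 differed by 0.89 (SE 0.16, adjusted p = 0.000821), since it rose in H358 and stood at 4.76, 4.62 and 4.75 CPM in A549 shNC and 3.85, 3.62 and 3.68 CPM in A549 shRAD21 (adjusted p = 0.0755). ZNF254 differed by -0.90 (SE 0.18, adjusted p = 0.00245), and in H358 it was 9.77, 10.5 and 11.97 CPM in shNC and 8.44, 9.48 and 9.31 CPM in shRAD21. ZNF573 differed by -1.38 (SE 0.33, adjusted p = 0.00687), with 1.16, 0.87 and 0.992 CPM in A549 shNC and 1.41, 2.16 and 2.18 CPM in A549 shRAD21 against 6.94, 7.38 and 7.06 CPM and 6.38, 4.51 and 4.54 CPM in H358. ZNF841, ZNF428, ZNF229 and ZNF274 differed by 1.00, 0.97, 0.82 and 0.48. The largest fitted difference among the 14, 2.97 for ZNF649, rests on A549 libraries with at most 0.268 CPM. Without A549 shRAD21 replicate 3 the counts were 21 and 21. Without A549 shNC replicate 1, and likewise without A549 shNC replicate 2, they were 6 and 3. Without H358 shNC replicate 2 they were 8 and 2, and without H358 shRAD21 replicate 1 they were 10 and 2.

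GC content moved with the fold changes. The exons of the members had a median GC content of 43.5%, against quartiles of 56.6% and 62.8% for the other protein-coding genes of chromosome 19, and a median of 45.2% for the ZNF genes of other chromosomes. The deviation of single libraries from their group followed GC content across all genes, with rho of -0.454, -0.411 and 0.595 in A549 shRAD21 and -0.565, -0.384 and 0.674 in RAD21OE. Across members, rho between GC content and log2 fold change was -0.155 after depletion in A549 (232 members), 0.161 after depletion in H358 (232) and 0.456 after overexpression (161). Across all genes tested it was -0.33, 0.186 and 0.311. With overexpression, members at or below the median GC content had 3 higher and 16 lower of 67, with a median of -0.29, and those above it had 14 and 7 of 94, with a median of 0.01.

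**Figure D5:**
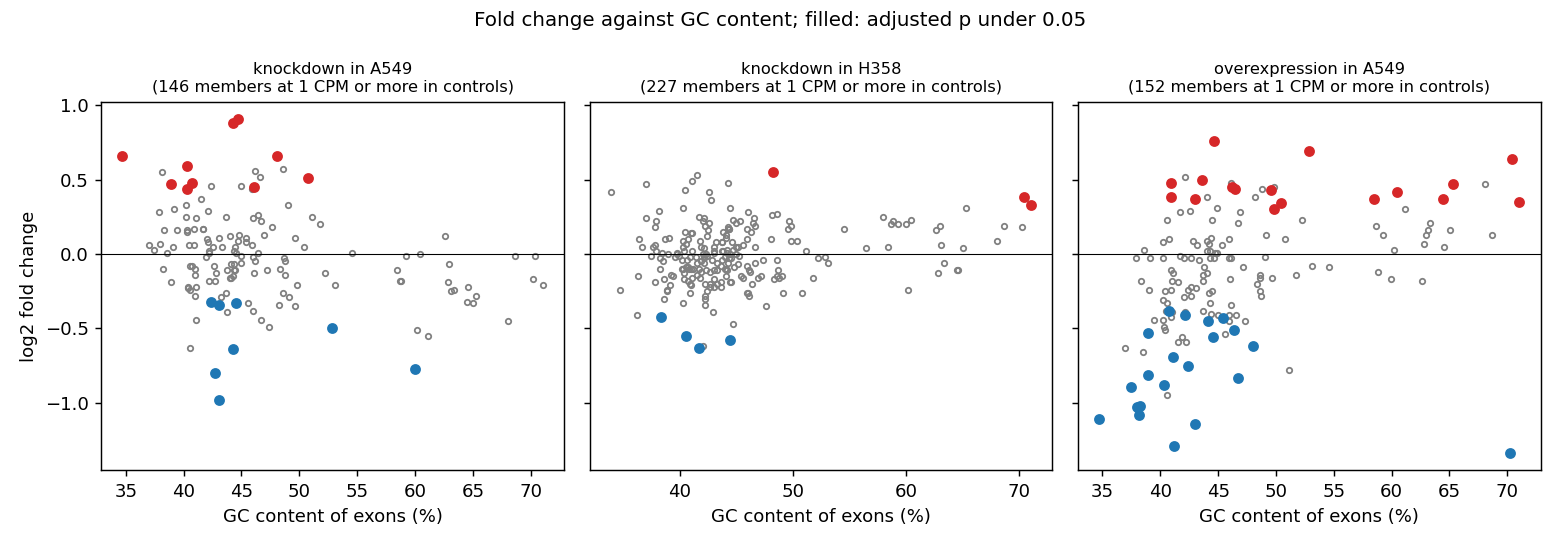
Log2 fold change against the GC content of exons (%) for members at 1 CPM or more in the controls: 146 in the A549 knockdown, 227 in the H358 knockdown and 152 in the overexpression. Filled points passed an adjusted p of 0.05. In the overexpression panel most blue points lie at low GC content, and the red points extend to the members of highest GC content.

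When each library's trend on GC content and exon length was removed, rho over members became 0.0798, -0.0832 and 0.239. The counts of higher and lower members then were 9 and 25 after depletion in A549, 7 and 6 after depletion in H358 and 23 and 27 after overexpression, beside 29.6%, 17.6% and 38.4% of all genes called. For knockdown in A549 this moves the balance from mostly higher to mostly lower. In the run from ZNF175 to ZNF331, 8 members fell with that correction against 2 without it. In the overexpression the run from ZNF101 to ZNF254 had 0 higher and 4 lower as before, with a median of -0.38, and the run from ZNF565 to ZNF573 had 1 and 5, with a median of -0.35. ZNF274, ZNF254 and ZNF841 passed the test with the correction in both A549 comparisons. ZNF675 (adjusted p = 0.0643) and ZNF181 (0.0759) in A549 and ZNF628 (0.164) and ZNF865 (0.144) in H358 did not. The part of GC content in the other changes was not tested.

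Of 27 genes for corepressor partners of KRAB proteins, all were tested. Knockdown in A549 raised 5 and lowered 0, with a median of 0.09, beside 14.4% of all genes higher and 10.9% lower. TRIM24, a relative of TRIM28, rose by 0.66 (adjusted p = 2.31e-05), and the heterochromatin proteins CBX3 and CBX5 rose by 0.23 and 0.22, but with GC and length trends removed they stood at 0.11 (adjusted p = 0.0814) and 0.03 (0.637). TRIM28 itself averaged 1053 CPM in shNC and 1021 CPM in shRAD21 (log2 fold change -0.05, adjusted p = 0.718, but 0.17 and 0.00356 with GC and length trends removed), and SETDB1 averaged 36.2 and 35.8 CPM (-0.02, adjusted p = 0.915). Knockdown in H358 raised 3, UHRF1 by 0.43, DAXX by 0.28 and the DNA methyltransferase DNMT1 by 0.20, and lowered 0, beside 3.78% and 4.62% of all genes. Overexpression raised 7 and lowered 4, beside 14.1% and 13.7% of all genes: TRIM28 rose by 0.40 (adjusted p = 0.0049), DNMT1 by 0.44 and MORC2 of the HUSH pathway by 0.57, and ATF7IP, a cofactor of SETDB1, fell by 0.52. Between the control lines, 13 of the 27 were higher in H358 and 8 lower, beside 39.1% and 36.8% of all genes. TRIM28 was lower in H358 by 1.10 and SETDB1 was higher by 0.88. The lines differ in genotype and origin as well, so these differences cannot be told apart from any other between them.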

How the data were processed

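RNA sequencing of total RNA gave 2 deposited tables of raw counts per gene, 1 for the 12 knockdown and 1 for the 6 overexpression libraries. Per the submitters' processing notes, fastp, HISAT2 2.0.5, featureCounts 1.5.0-p3 and hg38 were used, with no role, strand setting or handling of shared reads given. Gene positions in the files equal GENCODE 29 for all 58735 genes. The tables were fitted separately in R 4.3.3 by edgeR 4.0.16 with a coefficient for each group (filterByExpr, TMM, two-sided quasi-likelihood test). P-values were adjusted after Benjamini and Hochberg across every gene tested, and a member counts as higher or lower under 0.05. CPM use TMM library sizes. All 232 members were tested in the knockdown table and 161 in the other. Depth limits precision for members with few counts.

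The members, lists, runs and tests were chosen with earlier results of these data known. Named members are the 8 largest rises and falls per comparison (5 for the difference between the knockdowns) that passed the test, averaged 1 CPM or more and, except for that difference, group ranges that do not overlap. Also named are the 5 highest per kilobase in each line, the 3 on either side of the threshold, up to 4 corepressor partners each way, TRIM28 and SETDB1. ZNF714, ZNF845, ZNF160, ZNF93 and genes named only as ends or members of a run or stretch were chosen once their values had been seen. The alternatives comprised DESeq2 1.42.0 size factors and Wald test, limma-voom (limma 3.58.1), other filters, GC and length trends (splines with 8 degrees of freedom) as offsets, a replicate block, the 6 libraries of a comparison alone, each library left out, and a threshold of 300 counts. Replicates with the same number did not deviate together (correlations of -0.0369 to 0.0674), so no pairing was used.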

Additional observations from a re-analysis of the deposited data

Results flagged for a closer look

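Of the 14 members whose response to knockdown differed between the lines by edgeR's test of the difference (H358 response minus A549 response, log2), 12 are named: ZNF649 (2.97), ZNF841 (1.00), ZNF428 (0.97), ZNF114 (0.89), ZNF229 (0.82), ZNF787 (0.59), ZNF865 (0.54), ZNF274 (0.48), ZNF814 (-0.56), ZNF792 (-0.77), ZNF254 (-0.90) and ZNF573 (-1.38). RAD21 itself differed by 0.57, being depleted less in H358, so a difference in response cannot be told apart from a difference in depletion. Among the corepressor partners the difference was 0.31 for DAXX, -0.42 for TRIM33 and -0.43 for TRIM24. None of these 3 passed with GC and length offsets, at 0.13 (adjusted p = 0.33), -0.11 (0.295) and -0.19 (0.139). ZNF841, ZNF428, ZNF114, ZNF573 and ZNF254 passed the test under every alternative tried. ZNF814 (adjusted p = 0.0917), ZNF787 (0.0917) and ZNF865 (0.477) did not pass with GC and length offsets.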

How the results depend on the processing

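Both the counts and the named calls depended on the fit. Of 51 calls of named members outside the contrast of the control lines, 22 passed the test under every alternative: 5 of 15 for knockdown in A549, 2 of 7 in H358, 10 of 18 for overexpression and 5 of 11 for the difference. Knockdown in A549 gave 13 higher and 9 lower members. The number lower was 14 with no filter. GC and length offsets gave 25 lower, offsets with the replicate block 8 higher and 22 lower, and the 6 libraries alone 4 and 4. Leaving out 1 library gave 6 to 30 higher and 5 to 25 lower. The median of 0.00 became -0.005 with no filter, -0.043 with limma-voom, -0.047 with offsets, -0.049 with offsets and block, -0.033 with the 6 libraries alone, and -0.018 to 0.00 with 1 library left out.

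Knockdown in H358 gave 3 higher and 4 lower. The replicate block gave 1 and 2, offsets 7 higher, offsets with block 7 higher, the 6 libraries alone 12 and 11, and leaving out any 1 library 1 and 1. The median was 0.024 with offsets and 0.026 with offsets and block.

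Overexpression gave 17 higher and 23 lower. DESeq2's Wald test gave 14 lower, and leaving out 1 library 4 to 21 higher and 9 to 25 lower. For the difference between the knockdowns, leaving out 1 library gave 6 to 21 higher and 2 to 21 lower, with a median of -0.015 to 0.072, and the median was 0.111 with offsets and 0.11 with offsets and block. The median log2 fold change of members, control H358 against control A549, was 1.73 and became 1.535 with a filter of 1 CPM, 1.534 with the 6 libraries alone and 1.409 with a threshold of 300 counts.

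Under the replicate block the other counts were 11 and 7 for knockdown in A549, 16 and 22 for overexpression, 9 and 3 for the difference and 169 and 29 between the lines. TRIM28 after knockdown in A549 reversed, from -0.05 to 0.17 with offsets and 0.17 with offsets and block. Beyond the alternatives' own construction, the cause was not tested. Members with few counts in A549 limit what could be seen there.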

Other observations

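Of the 14 candidates with too few counts to be members, 8 had at most 3 counts in both H358 groups. Of these, 7 lie side by side with members inside the run from ZNF101 to ZNF254: ZNF208, ZNF257, ZNF98, ZNF492, ZNF99, ZNF723 and ZNF728 (chr19:21932958-23003176). They held between 0 and 2 counts over all 12 knockdown libraries, in either line, so the run that is expressed in H358 contains genes at or near 0 in both lines.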
